A study of Oryctolagus cuniculus with 16 samples.

Results

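Interferon-stimulated genes and IDO1 were followed in the vaginal wall of New Zealand White rabbits, all female and 17 to 19 weeks old. Poly(A) RNA of 16 libraries was sequenced: 6 from native vaginas (control), 3 after sham surgery (sham), 3 beside an acellular graft, labelled as without particles (acellular), and 4 beside a graft carrying autologous tissue particles (PLATE). Both graft groups were taken 10 mm from the graft, and the labels give no sampling distance for sham and control, so site and graft cannot be told apart in comparisons with them. Libraries are named here by group and animal number. Both control and PLATE include a library numbered 9, and it is not stated if the same rabbit gave both. Members were the rows of the counts table whose symbol matched 9 named genes, whatever the case. Of the 9, 5 had a row among 13001 named genes: IFIT2, IFIT3, ISG15 and IRF7 of the type I set, and IDO1 of the interferon-gamma type set. IFIT1, MX1, IRF1 and GBP2 matched no symbol in the table and were not analysed here. IDO1 therefore stands alone for its set, and a list of other interferon-gamma targets is described beside it.

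Type I interferons act through the receptor chains IFNAR1 and IFNAR2 and switch on antiviral genes in almost any cell. Interferon gamma, made mainly by T and NK cells, acts through IFNGR1 and IFNGR2 and induces antigen presentation genes, T cell chemokines and guanylate binding proteins. The IFIT proteins bind viral RNA, ISG15 is a ubiquitin-like modifier and IRF7 is the transcription factor that amplifies type I interferon production. IDO1 opens the degradation of tryptophan to kynurenine. It is a classical interferon-gamma target in human cells and is also made by myeloid cells. IFIT2 and IFIT3 are related genes that lie side by side in the RefSeq rabbit assembly mOryCun1.1, where IDO1 lies beside its relative IDO2. The strand and multi-mapping settings of the counting are not stated, so reads shared between such relatives could have been split.

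Total counts per library ran from 20992063 to 30695000, and those on named genes from 15348880 to 23236339. Levels are given as CPM, counts scaled to the effective library size. CDH1, the epithelial cadherin, and EPCAM, an epithelial adhesion molecule, stood at 1.35 and 1.71 CPM in control 2, against 13.7 to 238 and 33.4 to 287 CPM in the other libraries. Summed over 11 columnar epithelium markers, control 2 held 17.4 CPM and the others 291 to 1728 CPM. PLATE 1 held 4057 CPM of neutrophil markers against 38.4 to 1137 CPM in the other 15 libraries. In bulk tissue, fewer cells of a type and less RNA per cell cannot be told apart. Smooth muscle markers summed to 8906 to 155544 CPM and fibroblast markers to 12228 to 54005 CPM, so that both stromal cell types of the vaginal wall were seen in every library. Nothing in the labels gives a batch.

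The 4 type I members overlapped between all groups, and none of them passed a test between groups. IFIT2, which binds viral RNA together with its relatives, ran from 29.9 to 64.9 CPM in control with a median of 43.0 CPM. It was at 44.8, 58.6 and 77.5 CPM in sham 11, 12 and 14, and at 32.3, 60.7 and 113.7 CPM in acellular 6, 8 and 10. In PLATE 1, 5, 9 and 13 it stood at 6.27, 54.9, 38.3 and 38.8 CPM. PLATE 1 was the lowest library and acellular 10 the highest, and all groups overlapped.

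IFIT3, which holds IFIT1 in its complex in human cells, ran from 96.4 to 334 CPM in control with a median of 151 CPM. It was at 92.0, 129 and 238 CPM in sham 11, 12 and 14, and at 109.9, 154 and 376 CPM in acellular 6, 8 and 10. In PLATE 1, 5, 9 and 13 it stood at 81.8, 130.3, 209.9 and 105.7 CPM. Control 9 and acellular 10 were the 2 highest libraries for IFIT3, and PLATE 1 was again the lowest.

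ISG15, the ubiquitin-like modifier, ran from 3.96 to 71.2 CPM in control with a median of 22.2 CPM. It was at 15.1, 28.7 and 45.7 CPM in sham 11, 12 and 14, at 21.4, 27.6 and 58.999 CPM in acellular 6, 8 and 10, and at 17.3, 20.8, 31.6 and 15.8 CPM in PLATE 1, 5, 9 and 13. Here the extremes were both controls, control 2 the lowest and control 9 the highest. IRF7 ran from 4.86 CPM in control 2 to 139 CPM in control 9, with a control median of 51.95 CPM. It was at 27.1, 71.4 and 39.5 CPM in sham 11, 12 and 14, at 59.7, 44.4 and 81.5 CPM in acellular 6, 8 and 10, and at 15.01, 50.8, 62.8 and 40.3 CPM in PLATE 1, 5, 9 and 13. All operated libraries thus lay inside the control range for ISG15 and for IRF7.

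By the joint test for any difference among the 4 groups (edgeR's quasi-likelihood test, Benjamini-Hochberg adjusted over 10942 genes), adjusted p was 0.903 for IFIT2, 0.917 for IFIT3, 0.946 for ISG15 and 0.968 for IRF7. Across all genes the joint test called 0%, with 4.8% at an unadjusted p under 0.05. All 4 type I members had a log2 fold change above 0 in acellular against control, where 45.8% of all genes did, with log2 fold changes of 0.59 ± 0.50 (SE) for IFIT2, 0.32 ± 0.45 for IFIT3, 0.38 ± 0.61 for ISG15 and 0.11 ± 0.67 for IRF7 (adjusted p from 0.894 to 0.990 by edgeR). CDH1 averaged 149.6 CPM in acellular and 68.9 CPM in control (log2 fold change 1.12 ± 0.80, adjusted p = 0.881 by edgeR). EPCAM averaged 188 and 123 CPM (0.62 ± 0.80, adjusted p = 0.942 by edgeR). Control 2 and PLATE 1 were the lowest libraries for both. With the level of CDH1 and EPCAM as a covariate, 1 of the 4 type I members remained above control. The median of their log2 fold changes moved from 0.35 to -0.10. Without acellular 10, 1 of the 4 was above 0 and 3 were below, with a median of -0.16. Between PLATE and acellular the 4 log2 fold changes were -0.99 ± 0.54 for IFIT2, -0.69 ± 0.49 for IFIT3, -0.75 ± 0.66 for ISG15 and -0.55 ± 0.72 for IRF7, with adjusted p of 0.875 to 0.924. Without PLATE 1 and control 2 the median of these 4 was -0.60 against -0.72, and without acellular 10 it was -0.25, with 1 of the 4 above 0.

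**Figure D1:**
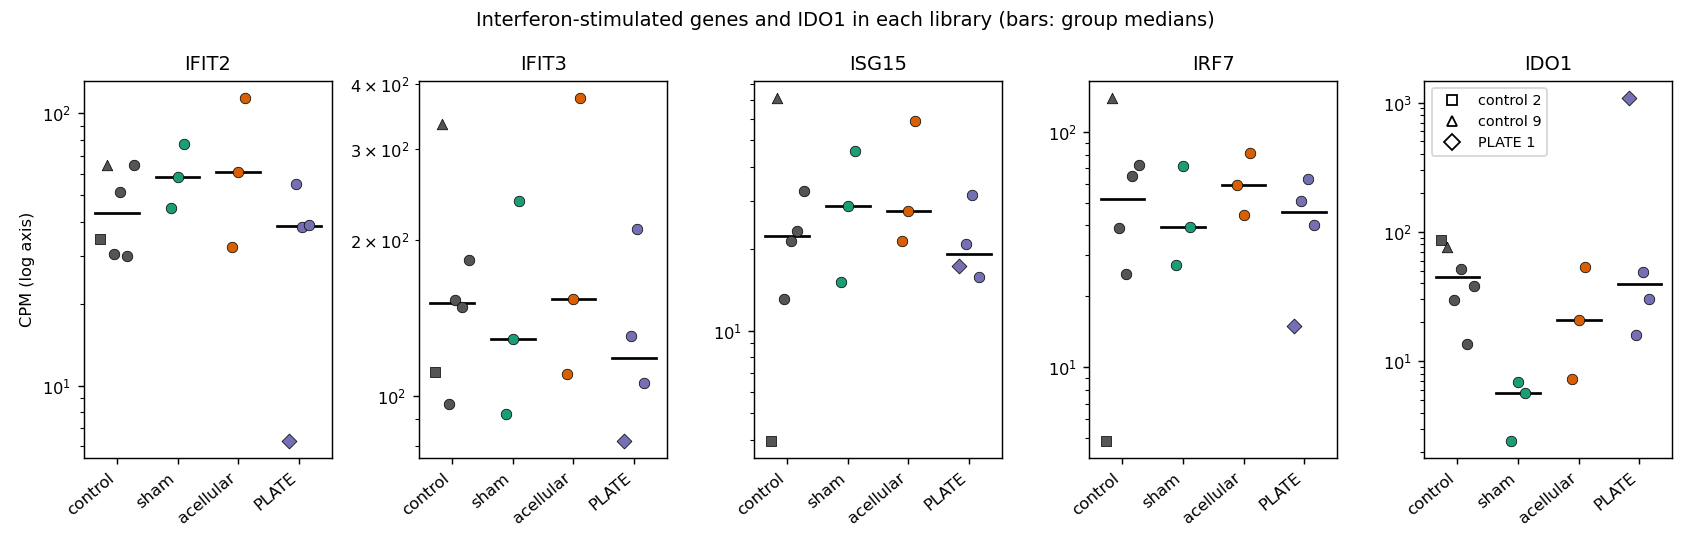
Levels of the 5 members in CPM on a log axis, 1 point per library, by group (6 control, 3 sham, 3 acellular, 4 PLATE), with bars at group medians and separate marks for control 2, control 9 and PLATE 1. The type I genes overlap between all groups, while the 3 sham libraries of IDO1 (2.42 to 6.94 CPM) lie below every other library and PLATE 1 (1081 CPM) lies far above.

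IDO1 differed in pattern from the type I members. It ran from 13.5 to 87.0 CPM in control with a median of 44.7 CPM, and was at 2.42, 6.94 and 5.72 CPM in sham 11, 12 and 14. In acellular 6, 8 and 10 it stood at 7.34, 20.8 and 53.1 CPM, and in PLATE 1, 5, 9 and 13 at 1081, 16.1, 48.8 and 30.2 CPM. Every sham library lay below every library of the other groups, though acellular 6 exceeded the highest sham library by little. Of all 16 libraries, control 2 was the second highest for IDO1 while it was the lowest for ISG15 and IRF7. The order of the group medians was sham at 5.72 CPM, acellular at 20.8 CPM, PLATE at 39.5 CPM and control at 44.7 CPM. Acellular overlapped PLATE, and PLATE overlapped control.

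Among all genes no pair of groups gave a call by edgeR (0% of 10942 genes in each of the 6 pairs), and IDO1 passed in none. The joint test of edgeR among the 4 groups gave IDO1 an unadjusted p of 0.00205 and an adjusted p of 0.901. At an unadjusted p under 0.05 that test had 4.8% of all genes. DESeq2 called 10 genes for acellular against control, 1 for acellular against sham, 1 for PLATE against acellular and 14 for PLATE against sham, and limma voom called 72 for acellular against sham. Sham was below control by a log2 fold change of -3.29 ± 1.26 (unadjusted p = 0.0193, adjusted p = 0.963). This held at -2.72 or lower under every alternative run, and at -3.04 without control 2 and PLATE 1. Of all genes, 2.98% had an unadjusted p under 0.05 for sham against control, and 1.79% had all sham libraries below all controls. PLATE was above sham by a log2 fold change of 5.87 ± 1.47 (unadjusted p = 0.00116, adjusted p = 0.657), and by 2.65 without PLATE 1. For that pair 7.5% of all genes had an unadjusted p under 0.05 and 7.91% had groups apart with PLATE higher. Acellular was above sham by 2.43 ± 1.29 (adjusted p = 0.902), where 7.82% of all genes had groups apart with acellular higher. Named-gene counts were 15348880 to 19473478 in acellular and 19615994 to 22481735 in sham. The part of this depth difference in the result was not tested.

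The difference of PLATE from control and from acellular in mean IDO1 rested on PLATE 1, while PLATE 5, 9 and 13 also lay above every sham library. PLATE against control gave a log2 fold change of 2.58 ± 0.95 (unadjusted p = 0.0163, adjusted p = 0.998), and -0.64 without PLATE 1. PLATE against acellular gave 3.44 ± 1.29 (unadjusted p = 0.0175, adjusted p = 0.875), and 0.23 without PLATE 1. The shares of all genes at an unadjusted p under 0.05 were 4.39 and 4.71% for these pairs. Acellular against control gave -0.86 ± 1.09 (adjusted p = 0.941). Over the 6 pairs, IDO1 was the only member with an unadjusted p under 0.05, in 4 of them. The pairs without one were acellular against control and acellular against sham, where 6 and 4.87% of all genes had one. Limma voom with quality weights called none of the 5 members in any pair. DESeq2 called none of the 4 type I members and gave no p-value for IDO1.

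Spearman's rho of IDO1 over 16 libraries was 0.76 with the summed neutrophil markers and 0.76 with the summed macrophage and dendritic cell markers, and 0.83 and 0.81 over 14 libraries without control 2 and PLATE 1. The other marker lists ran from -0.21 (smooth muscle) to 0.52 (endothelial) over 16 libraries. Over the 14 they ran from -0.49 (fibroblast) to 0.60 (endothelial), with T and NK cells at 0.54 and columnar epithelium at 0.50. These are descriptions of libraries that share their scaling. The 5 genes outside the members with the highest Spearman rho to IDO1, chosen for it among 10942, were C1orf162 (rho 0.98), SRGN, the granule proteoglycan serglycin of blood cells (0.94), S100A9 and S100A8, the calprotectin subunits of neutrophils and monocytes (0.94 and 0.93), and CXCR1, an interleukin 8 receptor of neutrophils (0.94). Without control 2 and PLATE 1 the same 5 values ran from 0.91 to 0.97 over 14 libraries. S100A9 stood at 5.22, 9.24 and 1.40 CPM in sham 11, 12 and 14, at 5.97, 14.2 and 109.4 CPM in acellular 6, 8 and 10, at 1191, 19.5, 101.3 and 48.0 CPM in PLATE 1, 5, 9 and 13, and at 29.5 to 218 CPM in control. The 6 neutrophil markers of 8 that had a row summed to 51.1 to 177 CPM in sham, 38.4 to 518 in acellular, 284 to 4057 in PLATE and 150.2 to 1137 in control. The lowest sum was that of acellular 6, below every sham library. Of these 6, MMP8, the neutrophil collagenase, had no count in any library. The 12 macrophage and dendritic cell markers summed to 187 to 255 CPM in sham, 158 to 546 in acellular, 276 to 1794 in PLATE and 117 to 990.1 in control. The part of these cells in the IDO1 values was not tested.

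**Figure D2:**
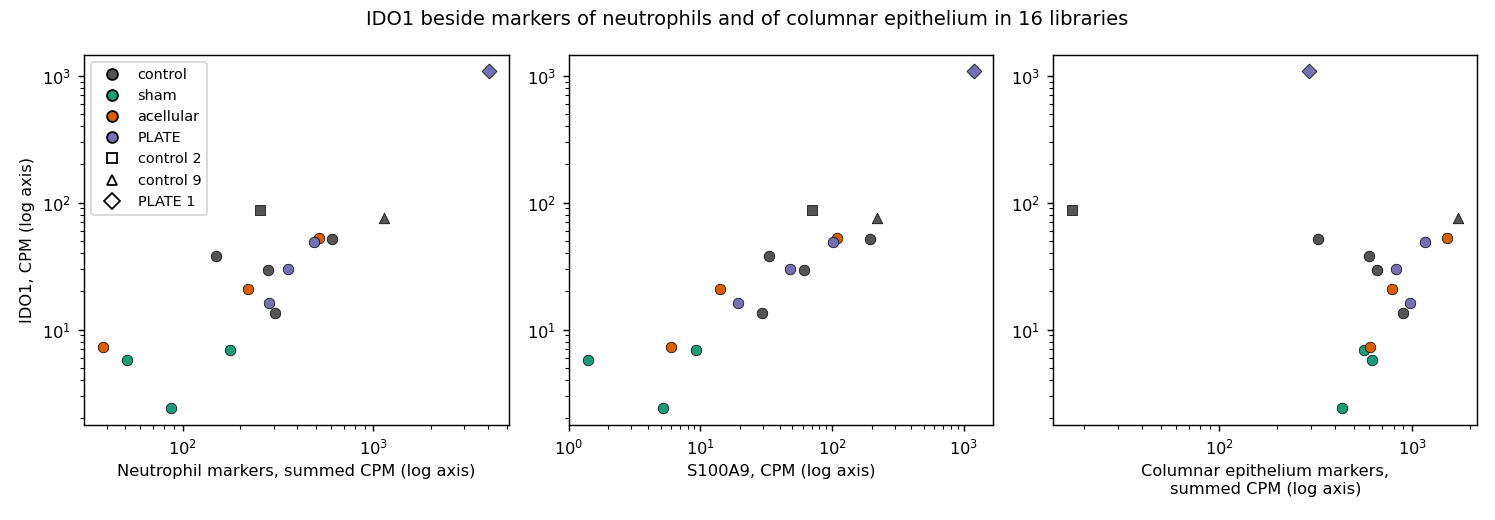
IDO1 in CPM against the summed CPM of 6 neutrophil markers, against S100A9 and against the summed CPM of 11 columnar epithelium markers, all on log axes, 1 point per library coloured by group. S100A9 was chosen for its nearness to IDO1 in these same libraries and is also 1 of the 6 neutrophil markers. The 3 sham libraries (2.42 to 6.94 CPM of IDO1) sit low with S100A9 at or below 9.24 CPM, and PLATE 1 is highest on IDO1, on S100A9 and on the neutrophil sum; control 2 stands apart on the epithelium axis.

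For IFIT3, the genes nearest by the same measure were USP18, the ISG15 protease that dampens type I signalling (rho 0.90), DDX58, the RNA sensor RIG-I (0.88), ZDHHC15, a palmitoyltransferase (0.86), OAS2, an antiviral oligoadenylate synthetase (0.85), and CCDC89 (0.84). Without control 2 and PLATE 1 these values ran from 0.84 to 0.92. IFIT3 was taken here after IFIT1 and GBP2 were found to have no row. Among the members, Spearman rho between pairs of type I genes ran from 0.50 (IFIT2 with IRF7) to 0.87 (IFIT3 with ISG15) over the 16 libraries. Between IDO1 and the 4 type I genes it ran from -0.09 to 0.15.

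The epithelial genes followed the type I members unequally. Pearson's r of log2 CPM over the 16 libraries was 0.93 between IRF7 and EPCAM (two-sided permutation p = 1e-05, the smallest that 100000 permutations can give, adjusted p = 0.0001 over 10 relations; Spearman's rho 0.80, p = 0.00038, adjusted p = 0.0038). Between IRF7 and CDH1 r was 0.91 (permutation p = 2e-05, adjusted p = 0.0001; rho 0.68, p = 0.00527, adjusted p = 0.0167). ISG15 gave r of 0.82 with EPCAM (permutation p = 0.00049, adjusted p = 0.00135; rho 0.60, p = 0.0171, adjusted p = 0.0245) and 0.82 with CDH1 (permutation p = 0.00054, adjusted p = 0.00135; rho 0.66, p = 0.00667, adjusted p = 0.0167). Libraries rich in epithelial transcripts were thus also high in these genes.

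Pearson's r over the 16 libraries was lower for the IFIT genes, while Spearman's rho of IFIT3 was close to that of ISG15. IFIT3 gave r of 0.51 with CDH1 (permutation p = 0.0414, adjusted p = 0.0829; rho 0.66, p = 0.00666, adjusted p = 0.0167) and 0.46 with EPCAM (permutation p = 0.0697, adjusted p = 0.0996; rho 0.62, p = 0.0118, adjusted p = 0.0197). IFIT2 gave r of 0.52 with CDH1 (permutation p = 0.0675, adjusted p = 0.0996; rho 0.63, p = 0.0117, adjusted p = 0.0197) and 0.39 with EPCAM (permutation p = 0.102, adjusted p = 0.128; rho 0.38, p = 0.152, adjusted p = 0.189). IDO1 gave r of -0.38 with CDH1 (permutation p = 0.14, adjusted p = 0.155; rho -0.06, p = 0.814, adjusted p = 0.904) and -0.30 with EPCAM (permutation p = 0.212, adjusted p = 0.212; rho 0.02, p = 0.953, adjusted p = 0.953).

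Control 2 and PLATE 1 were the 2 libraries farthest from the median of both epithelial genes. Without them r was 0.81 between IRF7 and EPCAM (adjusted p = 0.0068 by permutation) and 0.61 to 0.63 for IRF7 with CDH1 and for ISG15 with both genes. IFIT3 then gave 0.63 with each (adjusted p = 0.0331 by permutation). IDO1 changed sign, to 0.33 with CDH1 and 0.43 with EPCAM (adjusted p = 0.272 and 0.158 by permutation). Without control 9 as well, r was 0.50 to 0.58 for IRF7 with CDH1 and for ISG15 with both genes, with adjusted p of 0.113 by permutation, while IRF7 with EPCAM gave 0.77 (adjusted p = 0.0145). In that set IFIT3 gave 0.57 with CDH1 and 0.54 with EPCAM (adjusted p = 0.113 by permutation). Without control 2 and PLATE 1, the relations of ISG15 and IFIT3 with both genes and of IRF7 with CDH1 thus passed. They did not pass when control 9 was left out too. After group means were subtracted, r was 0.94 between IRF7 and EPCAM and 0.82 between ISG15 and EPCAM. Within the 6 controls alone it was 0.96 (two-sided exact permutation p = 0.00833) and 0.87 (exact permutation p = 0.0417), again with control 2 and control 9 as the ends. Levels of all these genes share the scaling of their library.

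**Figure D3:**
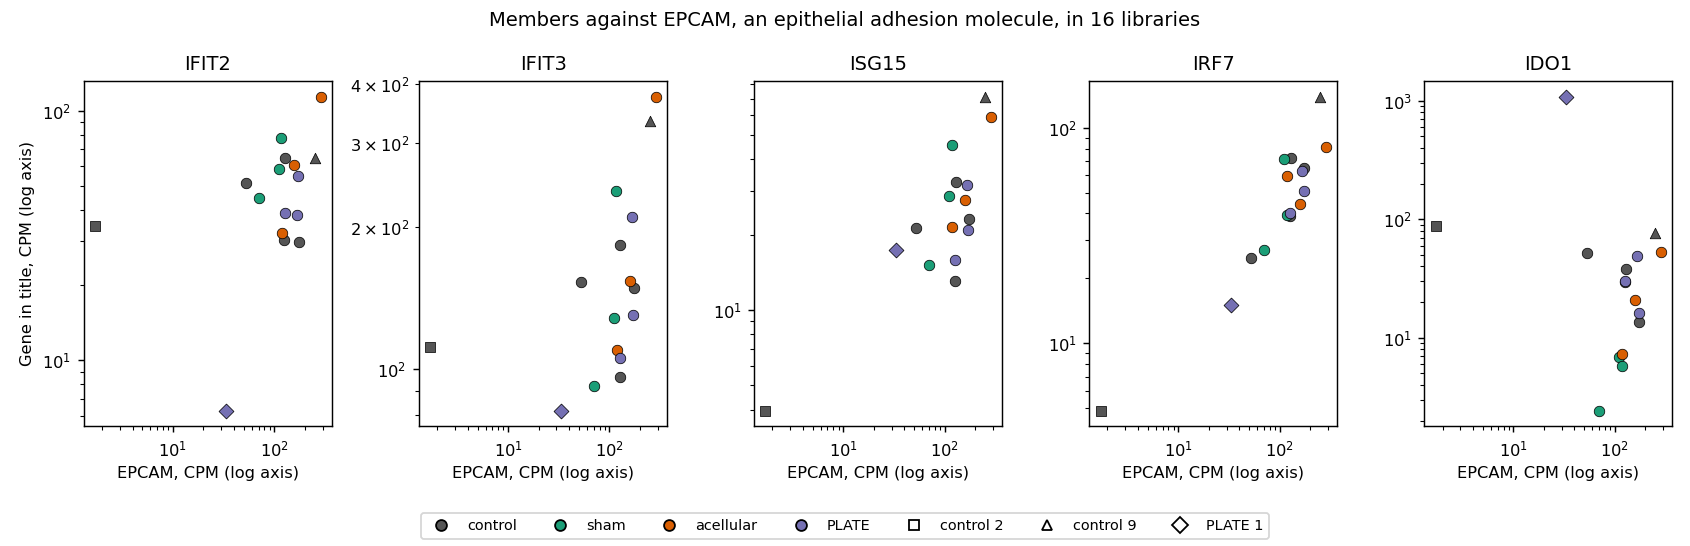
Each member in CPM against EPCAM in CPM, both on log axes, for 16 libraries coloured by group, with separate marks for control 2, control 9 and PLATE 1. IRF7 follows EPCAM (r = 0.93), while IDO1 does not (r = -0.30) and has PLATE 1 and control 2 at its top left.

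To set the interferon-gamma type member beside the type I members, each gene was centred on its mean log2 CPM over the 16 libraries, and the mean of the 4 type I genes was subtracted from IDO1. This difference was -2.98, -2.29 and -2.84 in sham 11, 12 and 14, below every other library, and -1.77, -0.62 and -0.31 in acellular 6, 8 and 10. In control it ran from -1.04 to 3.25, the highest being control 2. In PLATE 1, 5, 9 and 13 it was 6.68, -0.84, 0.49 and 0.45. Group means were 0.67 ± 1.45 (SD, n = 6) in control, -2.70 ± 0.36 (n = 3) in sham, -0.90 ± 0.77 (n = 3) in acellular and 1.70 ± 3.38 (n = 4) in PLATE. Without PLATE 1 the control mean was 1.12, the PLATE mean 0.48 and the acellular mean -0.45, so that PLATE no longer exceeded control. With control 2 left out as well, the means were 0.86 in control, -1.99 in sham, -0.19 in acellular and 0.74 in PLATE.

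The same difference for 25 other interferon-gamma targets gave another order. It ran from -0.66 to -0.04 in control and -0.90 to -0.01 in sham, and was -0.45, 0.68 and 0.06 in acellular 6, 8 and 10. In PLATE 1, 5, 9 and 13 it was 2.17, 0.45, 0.14 and 0.98, each above every control and sham library. By this difference from the type I members, sham thus stood apart for IDO1 and not for the other targets. These are descriptions of chosen genes and carry no test.

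**Figure D4:**
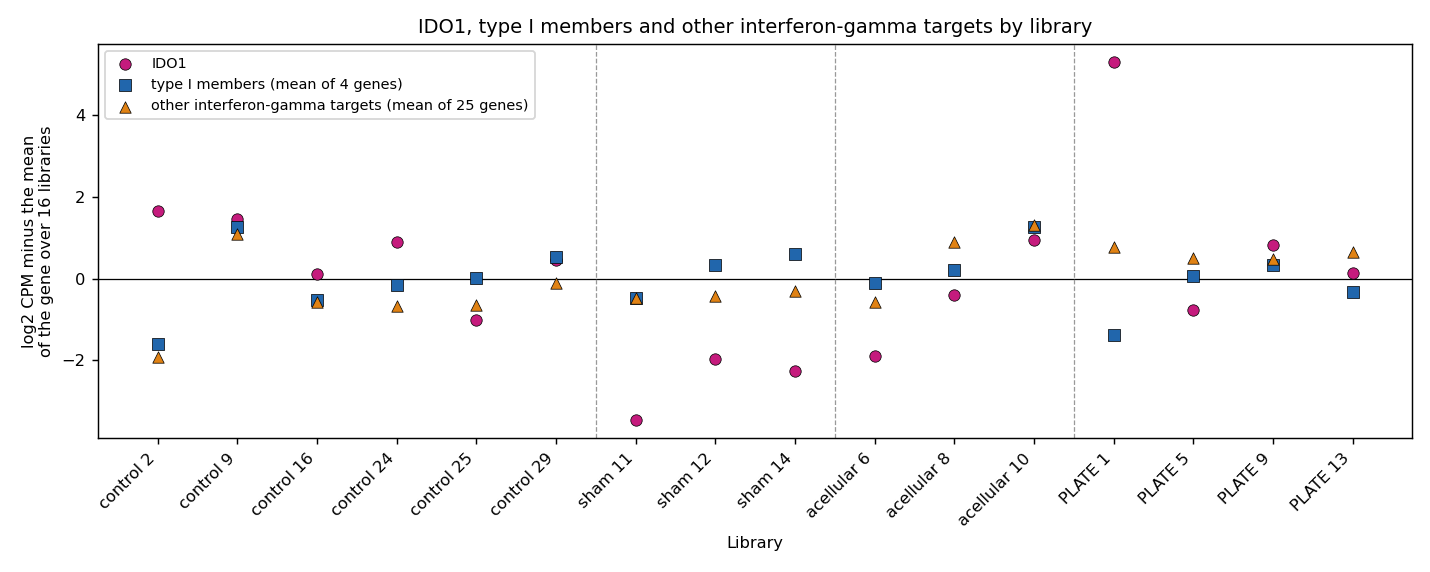
Log2 CPM of IDO1, of the mean of 4 type I members and of the mean of 25 other interferon-gamma targets, each gene minus its mean over 16 libraries, by library with dashed lines between groups. IDO1 lies below the type I mean in all 3 sham libraries (by 2.29 to 2.98) and far above it in PLATE 1 (by 6.68).

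Among the wider response, 25 of the 33 listed interferon-gamma targets and 23 of the 42 other listed type I genes had a row and were tested. In both graft groups all 25 interferon-gamma targets had a log2 fold change above 0 against control, with medians of 0.71 in acellular and 0.68 in PLATE. Over all genes 45.8 and 47.7% were above 0, with medians of -0.03 and -0.01. Against sham all 25 were again above 0, with medians of 1.05 in acellular and 0.97 in PLATE, where 52.2 and 52.6% of all genes were. Sham against control gave 4 of the 25 above 0 and 21 below, with a median of -0.30 against -0.06 for all genes. That sham median was -0.43 without control 2 and PLATE 1, and -0.43 to 0.12 with 1 library left out. None passed in edgeR. At an unadjusted p under 0.05 there were 6 of 25 in acellular and 6 of 25 in PLATE against control (1.77 and 3.3% of all genes, higher), and 7 of 25 in each against sham (1.76 and 5.85%). Without control 2 and PLATE 1 all 25 stayed above 0 in these 4 pairs, with medians of 0.57, 0.37, 1.06 and 0.77. The counts at an unadjusted p under 0.05 were then 4 of 25 in acellular and 0 of 25 in PLATE against control, and 13 and 6 of 25 against sham. The shares of all genes in that smaller fit are not given, so these counts cannot be set against them. Leaving out 1 library gave medians against control of 0.30 to 1.10 in acellular and 0.44 to 1.12 in PLATE. The mean of the 25 targets, each centred over the 16 libraries, was -0.57, 0.89 and 1.31 in acellular 6, 8 and 10. It was -0.48, -0.42 and -0.31 in sham 11, 12 and 14, so that acellular 6 lay below every sham library. Control 9, at 1.09, lay above every PLATE library (0.47 to 0.78). Acellular against sham and PLATE against sham share the sham libraries, and both comparisons with control share the controls.

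The counts of the type I list in the 2 graft groups were not tested against each other. Of its 23 genes 21 were above 0 in acellular against control (median 0.49), but 13 in PLATE against control (median 0.07). PLATE against acellular gave 3 above 0 and 20 below (median -0.48), where 52.4% of all genes were above 0. Without acellular 10 the median was 0.05 for acellular against control and -0.03 for PLATE against acellular. Without control 9 the median for PLATE against control was 0.47, and without control 2 it was -0.13. In each of the 6 pairs 0 of 23 type I genes had an unadjusted p under 0.05. All PLATE libraries were above all sham libraries for 15 of the 25 interferon-gamma targets and for 1 of the 23 type I genes, against 7.91% of all genes. For acellular against sham these counts were 2 of 25 and 1 of 23, against 7.82%. Against control they were 0 of 25 and 0 of 23 in both graft groups. Of all genes 0.704% lay apart with acellular above control, and that share is not given for PLATE.

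**Figure D5:**
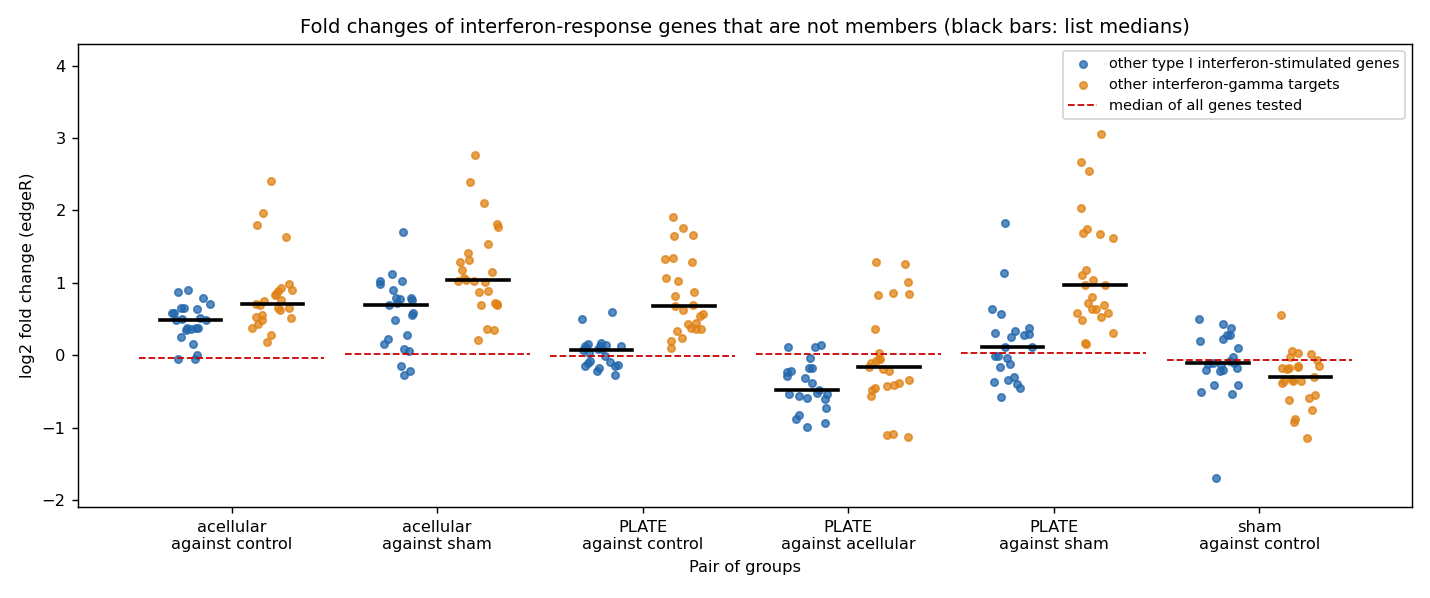
Log2 fold changes of 23 other type I genes and 25 other interferon-gamma targets in the 6 pairs of groups, 1 point per gene, with black bars at list medians and dashed red lines at the median of all genes tested. All 25 interferon-gamma targets lie above 0 for both graft groups against control and against sham, and the type I genes have PLATE medians of 0.07 against control, 0.12 against sham and -0.48 against acellular.

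Markers of T and NK cells, 10 of 18 with a row, summed to between 31.6 and 40.8 CPM in sham, 33.0 and 94.6 CPM in acellular, 53.7 and 141 CPM in PLATE, and 6.66 and 110.9 CPM in control. B and plasma cell markers, 7 of 9 with a row, summed to between 1054 and 1467, 1399 and 3924, 2258 and 5345, and 102.75 and 6406 CPM in the same order. The part of these cells in the list values was not tested. The interferon-gamma list includes antigen presentation genes that immune cells also express.

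Of its genes, the 2 with the smallest p in the joint test were HLA-DRA, a class II chain that presents peptides to T cells, and CIITA, the master regulator of class II genes. HLA-DRA stood at 290.5 to 364 CPM in sham, at 283, 1565 and 1552 CPM in acellular 6, 8 and 10, at 4844, 799.9, 1168 and 1345 CPM in PLATE 1, 5, 9 and 13, and at 221 to 1799.7 CPM in control. PLATE against sham gave a log2 fold change of 2.67 ± 0.85 (adjusted p = 0.657) and PLATE against control gave 1.75 ± 0.65 (adjusted p = 0.998). CIITA stood at 42.7, 5.24, 7.38 and 10.6 CPM in PLATE 1, 5, 9 and 13, at 2.10, 10.1 and 7.99 CPM in acellular 6, 8 and 10, and at 1.89 to 2.05 CPM in sham. In control it was at 15.9 CPM in control 9 and at 0.90 to 3.35 CPM in the other 5. Acellular 6 lay with the sham libraries for both genes.

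CXCL9 and CXCL10, chemokines that draw T cells, and GBP1, a relative of GBP2, were taken after their values were seen. CXCL9 was at 3.01, 42.0 and 35.0 CPM in acellular 6, 8 and 10 and at 3.02 to 6.34 CPM in sham, with a log2 fold change of 2.39 ± 0.93 (adjusted p = 0.902). In PLATE 1, 5, 9 and 13 it was at 8.73, 34.02, 12.6 and 28.2 CPM, all above the sham libraries. GBP1 was at 119.7, 517 and 1502.5 CPM in acellular 6, 8 and 10, against 159 to 176 CPM in sham and 19.7 to 741 CPM in control. CXCL10 was at 22.4, 149 and 101.7 CPM in acellular 6, 8 and 10 and at 1.98 to 47.7 CPM in control, with a log2 fold change of 1.97 ± 0.67 (adjusted p = 0.827). For these 3 genes acellular 8 and 10 were high and acellular 6 was not.

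Of the type I list, ISG20, an antiviral exonuclease, and OAS2 had the smallest p in the joint test (adjusted p = 0.911 for both). ISG20 was at or below 2.48 CPM in every library. OAS2 stood at 37.8, 54.97 and 123 CPM in acellular 6, 8 and 10, at 14.9 to 53.9 CPM in sham, at 26.4 to 56.96 CPM in PLATE and at 4.41 to 99.6 CPM in control, so that all groups overlapped.

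Upstream, IFNG, the interferon-gamma gene itself, had few reads. Counts were 0, 11, 4, 0, 7 and 6 in control 2, 9, 16, 24, 25 and 29, and 18, 5 and 72 in sham 11, 12 and 14. They were 9, 37 and 11 in acellular 6, 8 and 10, and 24, 27, 8 and 21 in PLATE 1, 5, 9 and 13. The log2 fold change against control was 2.57 ± 0.91 in sham, 2.32 ± 0.93 in acellular and 2.201 ± 0.87 in PLATE, with unadjusted p of 0.013, 0.0242 and 0.0232 and adjusted p of 0.963, 0.827 and 0.998. Each operated group overlapped the control range. In sham, where IDO1 was lowest, IFNG counts were uneven, with 5 in sham 12 and 72 in sham 14. The relation of IFNG to IDO1 was not tested. Of the 8 ligand and receptor genes tested, 5 were above 0 in acellular and 7 in PLATE against control. For this list and those below, the shares of all genes above 0 were 45.8 and 47.7%. The ligand and receptor counts were 3 and 4 without control 2 and PLATE 1, and their PLATE median moved from 0.47 to -0.05. IFNGR2, a chain of the interferon-gamma receptor, stood at 168, 45.8, 59.002 and 49.05 CPM in PLATE 1, 5, 9 and 13, above all sham libraries (22.8 to 34.5 CPM), with a log2 fold change of 1.53 ± 0.55 (adjusted p = 0.657).

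Among the transducers, JAK1, a kinase of both receptors, averaged 485 ± 87.3 CPM in acellular (SD, n = 3), 435 ± 57.6 in PLATE (n = 4), 353 ± 29.3 in sham (n = 3) and 391 ± 75.5 in control (n = 6). Of the 5 transducers tested, 2 were above 0 in acellular and 3 in PLATE against control.

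Among 9 sensing genes tested, 8 were above 0 in acellular and 6 in PLATE against control. Without control 2 and PLATE 1 these counts were 7 and 5. TBK1, the kinase that activates IRF3 and IRF7, was at 74.6, 78.3 and 72.8 CPM in acellular 6, 8 and 10, above every control (56.99 to 66.5 CPM) and every other library, with a log2 fold change of 0.24 ± 0.11 against control (adjusted p = 0.827). Groups lay apart with acellular higher for 0.704% of all genes. IRF5, an interferon regulatory factor of myeloid and B cells, was at 83.3 CPM in PLATE 1 and at 4.59 to 36.4 CPM elsewhere. Of the 7 negative regulators tested, 6 were above 0 in acellular and 5 in PLATE against control, and 5 and 4 without control 2 and PLATE 1. SAMHD1, a dNTP hydrolase, was at 41.0 to 53.9 CPM in sham and at 73.8 to 249 CPM in the graft groups, with log2 fold changes of 1.63 ± 0.49 for acellular and 1.44 ± 0.47 for PLATE against sham (adjusted p = 0.902 and 0.657). PTPN6, the phosphatase SHP1 of blood cells, was at 195.98 CPM in PLATE 1 and at 8.91 to 63.1 CPM elsewhere.

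In the tryptophan and kynurenine list, 15 of 20 genes had a row and were tested, and 5 were above 0 in acellular against control and 8 in PLATE against control. Both counts were 4 without control 2 and PLATE 1. KMO, which hydroxylates kynurenine, was at 12.7 CPM in PLATE 1 and at 0.04 to 1.72 CPM in the other 15 libraries. KYNU, which cleaves kynurenine and was taken after its values were seen, was at 15.4 CPM in PLATE 1 and at 0.27 to 3.06 CPM elsewhere. IDO2, the relative of IDO1 and likewise taken after its values were seen, was at 5.50 CPM in PLATE 1, at 4.15 CPM in control 16 and at 1.32 CPM or less in the other 14 libraries. PLATE 1 was thus the highest library for IDO1, IDO2, KMO and KYNU. CYP1A1, a detoxifying enzyme switched on by the aryl hydrocarbon receptor, which kynurenine can bind, had another pattern. It was at 0.39 CPM in PLATE 1, the lowest of all, and at 394 CPM in control 9.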

How the data were processed

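Stranded poly(A) libraries of 16 samples were sequenced on an Illumina instrument, per the labels' protocols. The authors deposited raw read counts per gene symbol. FastQC, HISAT2 2.2.1 and featureCounts are named in the submitters' processing notes. The genome build, annotation and strand setting are not given in the sources used here, so reads of overlapping or antisense genes cannot be told apart. A row that names no gene held 22.9 to 28.5% of the counts and was left out. Counts of 13001 named genes were scaled by TMM, filtered by filterByExpr to 10942 genes and tested with edgeR 4.0.16 (R 4.3.3) in 1 quasi-likelihood fit of 4 group means with 12 residual degrees of freedom, with Benjamini-Hochberg adjustment over all genes tested and a threshold of 0.05. Errors on log2 fold changes are SE. Alternatives used DESeq2 1.42.0, limma 3.58.1, other scaling, no filter, an epithelium covariate and fewer libraries. The step was tested on simulated data. Levels in log2 CPM used a prior count of 2. Correlations used 100000 permutations (scipy 1.17.1), adjusted over 10 relations, since 4 of the 9 genes had no row. Beside members, the named genes were the 2 with the smallest joint p in each list and the 5 nearest patterns, of which 1 gene is not reported here; others are said to be taken after their values were seen. Members and lists were chosen with earlier results of these data known. Libraries of a group differed well beyond sampling noise, with a lowest chi-square of 43.7 per degree of freedom. All 5 members matched RefSeq by symbol, and no sequence was used. Precision was limited by counting error and by the spread between libraries of a group.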

Additional observations from a re-analysis of the deposited data

Results flagged for a closer look

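In 68 groups of 4 to 6 libraries, 24 libraries stood far from the rest of their group by the gap to the nearest library over the group's range. Chance flags about 1 in 20 sets, and neighbouring genes and libraries are not independent. Several of the genes were chosen for their values in these same libraries, so the number of flags cannot be set against that rate. PLATE 1 stood far above the other PLATE libraries for 12 genes: IDO1 at 1081 CPM, HLA-DRA at 4844 CPM, CIITA at 42.7 CPM, IFNGR2 at 168 CPM, IRF5 at 83.3 CPM and PTPN6 at 195.98 CPM. For the same library KMO was at 12.7 CPM, KYNU at 15.4 CPM, S100A8 at 945 CPM, S100A9 at 1191 CPM, SRGN at 2016 CPM and CXCR1 at 329.5 CPM.

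Control 9 stood far above the other controls for 8 genes: IFIT3 at 334 CPM, ISG20 at 2.48 CPM, OAS2 at 99.6 CPM, HLA-DRA at 1799.7 CPM, CIITA at 15.9 CPM, IRF5 at 36.4 CPM, GBP1 at 741 CPM and CYP1A1 at 394 CPM. PLATE 9, which carries the same animal number in its label, stood apart for CYP1A1 at 176 CPM. Control 16 was far below the other controls for TBK1 at 56.99 CPM and far above them for IDO2 at 4.15 CPM. Control 24 was far above the other controls for S100A8 at 258 CPM.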

How the results depend on the processing

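Over 30 fold changes of the 5 members and 24 alternatives, 714 of 720 values had an adjusted p, and none of these was under 0.05 (lowest 0.108). The other 6 were those of IDO1 in DESeq2, which gave no p-value. Of the 720 values 40 changed sign, in 17 fold changes. The number of genes called, 0 in edgeR, was 10 for acellular against control, 1 for acellular against sham, 1 for PLATE against acellular, 14 for PLATE against sham and 1 for the joint test in DESeq2, and 72 for acellular against sham in limma voom. With the epithelium covariate, acellular against control turned to -0.050 for IFIT3, -0.15 for ISG15 and -0.45 for IRF7 (log2). Without control 2 and PLATE 1 IRF7 turned to -0.12. IDO1 in PLATE against control turned to -0.28 in limma voom, -0.40 without control 2 and PLATE 1 and -0.082 without control 9 as well. Leaving out 1 library gave ranges, for acellular against control, of -0.38 to 0.63 for IFIT3, -0.17 to 0.93 for ISG15 and -0.14 to 0.59 for IRF7, for PLATE against acellular of -1.01 to 0.0015 for IFIT3, and for PLATE against control of -0.64 to 2.97 for IDO1. The cause was not tested.

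Pearson's r of IFIT2 with CDH1 was 0.57 after group means were subtracted. Without control 2 and PLATE 1, which are also the 2 farthest libraries, it was 0.63 for IFIT3 with CDH1 and 0.63 with EPCAM, and 0.33 and 0.43 for IDO1. Without control 9 as well, an alternative chosen after seeing the data, it was 0.56 for ISG15 with CDH1, 0.50 with EPCAM, 0.58 for IRF7 with CDH1, and 0.23 and 0.32 for IDO1. Leaving out 1 library gave 0.44 to 0.81 for IFIT2 with CDH1, 0.32 to 0.67 with EPCAM, 0.43 to 0.68 for IFIT3 with CDH1 and 0.40 to 0.69 with EPCAM. The sham mean of IDO1 minus type I members was -1.41 with each gene divided by its SD, -1.99 without control 2 and PLATE 1, and -3.06 to -2.26 without 1 library. With the other interferon-gamma targets in place of IDO1, added after seeing the data, it was -0.55, and the acellular mean was 0.10. Leaving IDO1 out could not be run, since no gene remained. No paired analysis was possible because the groups share only the number 9, in control and PLATE.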

Other observations

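CYP1A1 stood at 394 CPM in control 9, 176 CPM in PLATE 9 and 25.4 CPM in PLATE 13, and at 3.45 CPM or less in the other 13 libraries. The first 2 carry the same animal number.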
